A study of Mus musculus with 6 samples.

Results

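The genes described here are Pdgfra and Pdgfrb, which encode the receptors for platelet-derived growth factor (PDGF), and Pdgfa, Pdgfb and Pdgfc, which encode ligands for them. They were chosen by name, as 5 of the 18193 genes to which the array annotation gives a symbol of their own, and 11 of 34945 such probe sets measured them. The brightest probe set of a gene, by its mean over the arrays, is called the main one here, and the others are given beside it as a check. RNA came from A2.miR200c cells, a mouse embryonic stem (ES) cell line that carries the miR-200c and miR-141 cluster behind a doxycycline-inducible promoter, grown in serum as embryoid bodies, which are floating aggregates in which ES cells differentiate. Induced cultures received doxycycline at 500 ng/mL on day 2 and again on day 4, the second after the day 3 culture had been taken. Untreated cultures of the same line received none, and RNA was taken from both kinds on days 3, 4 and 5. Each of these 6 samples was 1 dish and 1 Affymetrix array, so that a treatment had 3 arrays and a treatment on a given day had 1. The arrays hold no doxycycline-treated line without the microRNA cluster, so an effect of doxycycline and an effect of the microRNAs cannot be told apart on them.

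PDGF ligands are secreted as dimers that bring together receptor chains on the responding cell, and the receptors are tyrosine kinases that then recruit signaling proteins to their phosphorylated tails. PDGFRα binds PDGF-A, PDGF-B and PDGF-C, whereas PDGFRβ binds mainly PDGF-B. In the early mouse embryo Pdgfa is made by epiblast and other epithelia while Pdgfra is made by mesoderm and by extraembryonic endoderm, and at later stages Pdgfrb marks mesenchyme and the mural cells of vessels. PDGFRα is widely used, together with Flk1, to stain nascent mesoderm in differentiating ES cell cultures.

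The induced microRNAs act by pairing of the seed, bases 2 to 8 from the 5′ end, with target transcripts. Their mature strands are shown, from RefSeq on GRCm38.p6, with the seed in capitals and followed by the other 3 family members, because the family falls into 2 seed groups and the induced cluster supplies 1 member of each.
miR-200c-3p, chr6:124718324-124718346, minus strand, induced: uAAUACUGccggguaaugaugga
miR-200b-3p: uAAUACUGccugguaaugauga
miR-429-3p: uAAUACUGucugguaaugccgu
miR-141-3p, chr6:124717917-124717938, minus strand, induced: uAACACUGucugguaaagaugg
miR-200a-3p: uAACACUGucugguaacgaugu
The matching 7-base sites in a target would read CAGUAUU for miR-200c and CAGUGUU for miR-141. Transcript sequences of the PDGF genes were not analysed here, so whether any of the 5 carries such a site was not examined.

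Values are model-based intensities from dChip on a linear scale, 1 per probe set and array, and differences were taken on log2(intensity + 50), which damps them at low intensity. No detection calls were used, and a background level of 36.7 was set from 78 chemosensory receptor genes that these cells are not known to use. The 6 arrays were alike in scale, with median intensities of 34.5 to 36.9 and 48.8% to 50.1% of probe sets above that level. Neither microRNA has a probe set named for it. As a check of the labels, Zeb2, a well-known target of the miR-200 family, read 24.8, 32.7 and 55.9 on days 3, 4 and 5 of induced cultures, against 43.7, 97.6 and 237 in untreated cultures. Zeb1 read 132, 196 and 169 in induced cultures, against 131, 256 and 403 in untreated cultures. For Zeb2 the induced values of days 3 and 4 were below background and the untreated value of day 3 was near it. Zeb1 was nearly equal on day 3, so these genes say little about the labels of that pair. The pluripotency gene Pou5f1 was far above background on every array, between 2940.2 and 4751 in induced cultures and between 1014 and 4858 in untreated cultures.

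Both receptor genes were low on day 3 and became much higher by day 5, and both were lower in the induced culture than in the untreated culture on days 4 and 5. Pdgfa differed the other way, with a higher intensity in the induced culture on day 5. Pdgfb and Pdgfc differed less, by at most 1.33-fold on any day, for Pdgfc on day 4. The plot of intensity by day shows the 5 main probe sets.

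**Figure D1:**
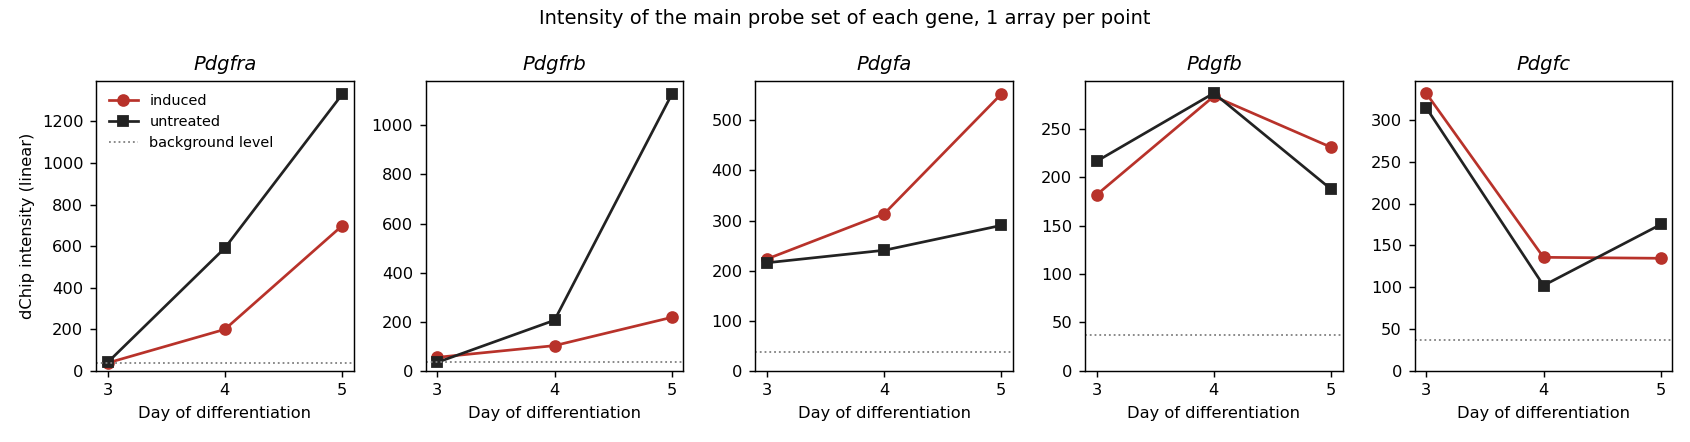
dChip intensity on linear axes from 0 against day of differentiation for the main probe set of Pdgfra, Pdgfrb, Pdgfa, Pdgfb and Pdgfc, with induced cultures in red, untreated cultures in black, 1 array per point and no error, and the background level of 36.7 dotted. On day 5 the induced array read 698 for Pdgfra, 218 for Pdgfrb and 553 for Pdgfa, against 1329.7, 1126 and 290.4 on the untreated array.

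Pdgfra (Entrez Gene 18595), the receptor of early mesoderm, read 37.8, 199 and 698 on days 3, 4 and 5 of induced cultures, against 40.3, 591 and 1329.7 in untreated cultures. It was thus near background in both cultures on day 3 and clearly present in both from day 4, and the induced culture on day 5 lay between the untreated cultures of days 4 and 5. Its intensity in the induced culture was 2.96-fold lower on day 4 and 1.91-fold lower on day 5, which is -1.36 and -0.88 on the log2 scale, after -0.04 on day 3. Each of these is a difference between 2 arrays and carries no test.

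Pdgfrb (Entrez Gene 18596), the receptor of mesenchyme and mural cells, read 54.8, 103 and 218 on days 3, 4 and 5 of induced cultures, against 34.4, 206 and 1126 in untreated cultures. On day 3 the induced culture was the higher of the pair and the untreated culture was below background. On days 4 and 5 the order was reversed, and the gap widened, to 2.01-fold lower on day 4 and 5.17-fold lower on day 5. The log2 differences were 0.31, -0.75 and -2.14. The induced culture on day 5 (218) was within 1.06-fold of the untreated culture on day 4 (206), whereas the untreated culture increased a further 5.47-fold between days 4 and 5.

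Pdgfa (Entrez Gene 18590), the ligand gene of the epiblast, was above background on all 6 arrays. It read 223, 314 and 553 on days 3, 4 and 5 of induced cultures, against 216, 241 and 290.4 in untreated cultures. The cultures were nearly equal on day 3 and separated on each later day, with log2 differences of 0.04, 0.32 and 0.82. The lowest value of the induced culture was above the lowest of the untreated culture, and its values on days 4 and 5 both exceeded all 3 untreated values.

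Pdgfb (Entrez Gene 18591), a ligand gene that vessels express in later embryos, read 182, 284 and 231 on days 3, 4 and 5 of induced cultures, against 217, 287 and 188 in untreated cultures. Both cultures had their highest value on day 4, and the ranges overlapped. The log2 differences changed sign over time, at -0.20, -0.01 and 0.24.

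Pdgfc (Entrez Gene 54635), whose product is secreted in a latent form and cut by proteases before it can bind the receptor, read 332, 136 and 135 on days 3, 4 and 5 of induced cultures, against 315, 102 and 175 in untreated cultures. It was highest on day 3 in both. The induced culture stayed at its day 4 level on day 5, whereas the untreated culture was 1.72-fold higher on day 5 than on day 4. The log2 differences were 0.07, 0.29 and -0.29. Intensities of these 5 genes were compared within a gene only, since probe sets of different genes do not share a scale. These arrays of whole cultures cannot tell fewer cells of a type from less RNA per cell.

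The other probe sets of these genes differed in how far they bore out the main ones. Pdgfrb had a second probe set, above background on 1 array only, the untreated array of day 5, at 18.5 in the induced culture and 106 in the untreated culture (-1.19 on the log2 scale). Pdgfa had a second one that was above background throughout. It read 179, 262 and 392 in induced cultures and 185, 236 and 293 in untreated cultures, and its log2 differences of -0.04, 0.13 and 0.37 on days 3, 4 and 5 were smaller than the main ones on days 4 and 5, with the sign turned on day 3.

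Pdgfra was the gene whose probe sets differed most. The second one, above background on 4 arrays, read 50.9 in the induced culture and 52.4 in the untreated culture on day 4, and 79.9 and 90.0 on day 5, so that its differences were -0.02 and -0.11. It did increase over time, by 1.01 on the log2 scale between days 3 and 5 in induced cultures and by 1.03 in untreated cultures. The third, above background on 1 array only, differed by -0.30 on day 4 and -0.37 on day 5. On day 3 the second and the third were below background in both cultures, and so was the third on day 4, so they give no direction there. The size of the difference came from the brightest, whose mean intensity of 483 compares with 51.1 and 25.2 for the others.

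For Pdgfb the second probe set was above background on 1 array only. The second one of Pdgfc differed by 0.07, -0.17 and -0.09 on days 3, 4 and 5, opposite in sign to the main one on day 4.

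**Figure D2:**
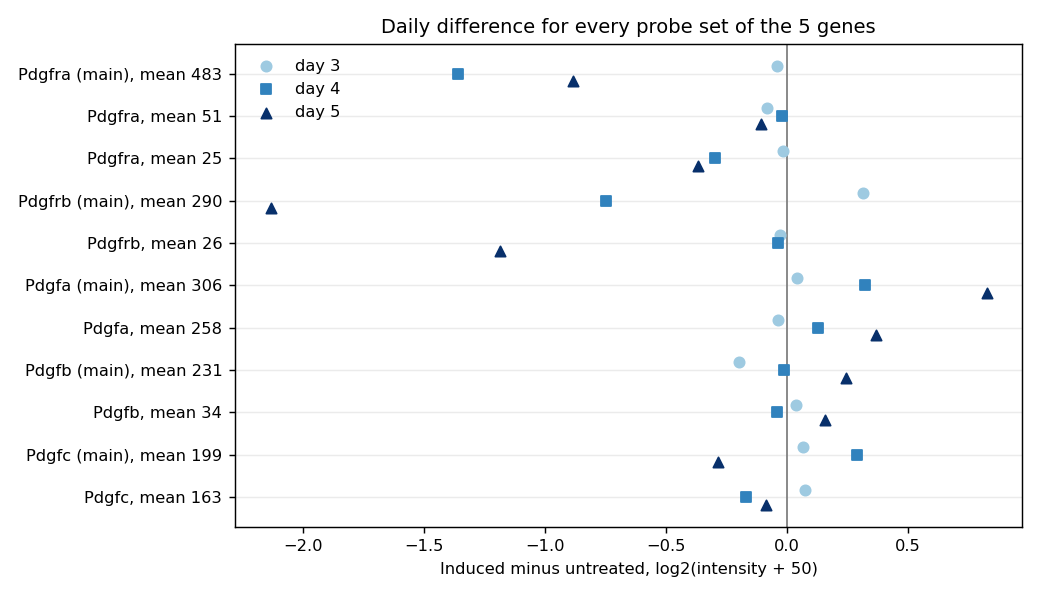
Induced minus untreated difference in log2(intensity + 50) on days 3 (circles), 4 (squares) and 5 (triangles) for each of the 11 probe sets of the 5 genes, with the mean intensity over the 6 arrays beside the gene; each point rests on 2 arrays. The brightest probe sets of Pdgfra and Pdgfrb reach -1.36 on day 4 and -2.14 on day 5, and both probe sets of Pdgfa lie above 0 on days 4 and 5.

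Whether induction altered the genes over days 3 to 5 was tested with limma as the treatment term of a fit that also held day as a factor, where the 3 daily differences serve as replicates and any growth of the difference over time counts as spread. None of the 5 genes passed over the 9997 genes tested, where 0% of genes were called in either direction (842 genes, or 8.42%, had an unadjusted p under 0.05, among them 1 of the 5, Pdgfra, at 0.0294). All 5 genes entered the test, but Pdgfra and Pdgfrb did so only through their values on days 4 and 5, since the filter asked for a highest value of at least 80.1. Pdgfra had a mean log2 difference of -0.76 ± 0.67 (SD, n = 3 days) and was lower on 3 of 3 days (limma adjusted p = 0.573). Pdgfrb had -0.86 ± 1.23 and was lower on 2 of 3 days (limma adjusted p = 0.609). Pdgfa had 0.40 ± 0.40 and was higher on 3 of 3 days (limma adjusted p = 0.573), where 19.3% of all genes were higher and 14.3% lower on each day. Single days weighed on these means. Without day 5 Pdgfrb had -0.22 and Pdgfa 0.18, without day 3 Pdgfrb had -1.44, and without day 4 Pdgfra had -0.46. For Pdgfb the mean difference was 0.01, with a 95% interval of 0.28 to either side, and for Pdgfc 0.02, with 0.33 to either side (limma adjusted p = 0.986 and 0.969).

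The differences of Pdgfra and Pdgfrb did not grow alike. Pdgfra was furthest apart on day 4 and Pdgfrb on day 5, and the difference of Pdgfrb moved by -1.22 per day (SE 0.11), which shared the smallest adjusted p of all genes in the test of treatment by linear day (limma adjusted p = 0.105). No gene passed in that test, with 0% called in either direction and 1322 genes at an unadjusted p under 0.05. The change per day was 0.39 (SE 0.09, limma adjusted p = 0.205) for Pdgfa and -0.42 (SE 0.23, limma adjusted p = 0.498) for Pdgfra. When treatment by day was added to the fit for induction, which leaves 1 residual degree of freedom, Pdgfrb passed (limma adjusted p = 0.0248) in a background of 0.42% of genes lower and 1.03% higher, while Pdgfra (limma adjusted p = 0.132) and Pdgfa (limma adjusted p = 0.0824) did not. In that fit a gene's own spread is only how far its daily differences depart from a straight line. It does not measure variation between cultures. For Pdgfrb the untreated value of day 3 (34.4) was below background.

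Counted by day at 2-fold on the log2(intensity + 50) scale and without a test, 0 of the 5 genes were past it on day 3, where 0.01% of genes were lower and 0.01% higher. On day 4 Pdgfra was 2-fold lower, in a background of 0.5% of genes lower and 0.08% higher. On day 5 Pdgfrb was 2-fold lower, in a background of 1.52% lower and 1.97% higher. At any size, 2 of the 5 were lower on day 3 (48.2% of genes) and 3 higher (51.8%), 3 were lower on day 4 (45.9%) and 2 higher (54%), and 3 were lower on day 5 (46.7%) and 2 higher (53.2%). Over the 5 genes the median difference was 0.04, -0.01 and -0.29 on days 3, 4 and 5, beside 0.00475, 0.02 and 0.02 over all genes tested.

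The second comparison asked how the genes changed over differentiation, as day 5 minus day 3 with treatment in the fit. Here 3 of the 5 genes rose and 1 fell, where 20.6% of all genes tested rose and 19.2% fell. Pdgfra rose by 3.51 on the log2 scale (SE 0.31, limma adjusted p = 0.00268), Pdgfrb by 2.58 (SE 0.55, limma adjusted p = 0.0205) and Pdgfa by 0.75 (SE 0.20, limma adjusted p = 0.0353). Both receptor genes entered this test only through days 4 and 5. With the mean of all its probe sets Pdgfra rose by 1.69 (limma adjusted p = 0.00457). Pdgfc fell by 0.87 (SE 0.16, limma adjusted p = 0.0132). Pdgfb had a change of 0.06 (SE 0.13, limma adjusted p = 0.762). Without day 4, from which part of the spread is estimated, the adjusted p of Pdgfa was 0.077 and the other calls were kept. The number of genes called overall was 3984, and 2454 without day 4.

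Set side by side, the change from day 3 to day 5 had the same sign in both cultures for 4 of the genes, but its size differed. Pdgfra changed by 3.09 in induced cultures and by 3.93 in untreated cultures. Pdgfrb changed by 1.35 in induced cultures and by 3.80 in untreated cultures. For Pdgfa the induced change was the larger, at 1.14 against 0.36 in untreated cultures, and for Pdgfc the changes were -1.05 and -0.70. Pdgfb stood at 0.28 in induced cultures and -0.17 in untreated cultures. Thus 3 of the 5 genes were at least 2-fold higher in induced cultures (4.67% of genes) and Pdgfc 2-fold lower (3.07%), and 2 of the 5 were 2-fold higher in untreated cultures (5.93%) and 0 lower (4.86%). These are differences of 2 arrays each, with no test.

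The increase can be divided into steps. In untreated cultures Pdgfra gained 2.83 between days 3 and 4 and 1.11 between days 4 and 5, whereas in induced cultures it gained 1.51 and 1.58. Pdgfrb gained 0.54 and 0.81 over the same intervals in induced cultures, and 1.60 and 2.20 in untreated cultures. Because both receptors were near or below background on day 3, the sizes of the first steps depend on the pseudocount. So does the order of the steps for Pdgfrb in untreated cultures and for Pdgfra in induced cultures. As plain intensity ratios the steps of Pdgfrb in untreated cultures were 5.99-fold and 5.47-fold, the earlier being the larger. For Pdgfra the earlier was also the larger, at 14.7-fold and 2.25-fold in untreated cultures and 5.28-fold and 3.50-fold in induced cultures.

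**Figure D3:**
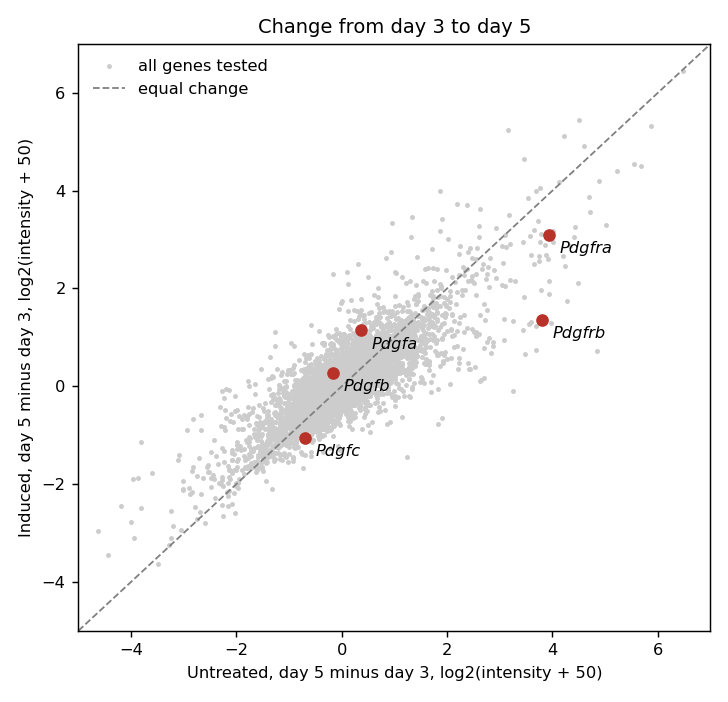
Change from day 3 to day 5 in log2(intensity + 50) for each gene tested (gray), induced cultures on the vertical axis and untreated cultures on the horizontal axis, with the 5 genes in red and a dashed line at equal change; each value rests on 2 arrays. Pdgfrb lies at 1.35 induced and 3.80 untreated and Pdgfra at 3.09 and 3.93, below the line, and Pdgfa lies above it at 1.14 and 0.36.

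Genes with the most similar pattern over the 6 arrays were sought by Pearson correlation of log2(intensity + 50) among the 1565 genes that spanned at least 1 log2 unit, as a description over 6 points that share days and treatments. For Pdgfra they were B3gnt5 (r = 0.996), which encodes a glycosyltransferase, Cdk14 (r = 0.995) and the imprinted gene Peg3 (r = 0.995), which read 6667 in the induced culture and 9170 in the untreated culture on day 5. For Pdgfrb they were Frmd4a (r = 0.995), Adamts3 (r = 0.991), whose product is a secreted metalloprotease, and Nudt4 (r = 0.989). For Pdgfa they were Plet1 (r = 0.998), Tmc4 (r = 0.995) and the small heat shock gene Cryab (r = 0.985). Each of these 3 was also highest on the induced array of day 5, where Tmc4 read 445 in the induced culture and 170 in the untreated culture. Pdgfb was most like Sync (r = 0.974), Csf1 (r = 0.961) and Sp8 (r = 0.956), which were higher on day 4 than on day 3 in both cultures, and Pdgfc was most like Radil (r = 0.983), Ydjc (r = 0.970) and Snhg12 (r = 0.960), which were highest on day 3.

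Proteins that process or bind PDGF ligands, outside the 5 genes, were measured by 7 genes tested of 10 listed. By day 5, 4 of them rose and 0 fell, to be read, as for each list that follows, against the 20.6% of all genes that rose and the 19.2% that fell. Nrp1, a co-receptor for several growth factors, rose by 5.10 (SE 0.41, limma adjusted p = 0.0023), and Pcsk5, a proprotein convertase, by 1.49 (SE 0.19, limma adjusted p = 0.0058). Nrp1 entered the test only through days 4 and 5, and Pcsk5 and Plat, another of the 4, only through day 5. In later lists Fos, Kdr, Flt1, Mesp1, Gata4, Gata6, Pth1r and Rgs5 rose, having entered only through days 4 and 5. Since their day 3 values were below the filter, entry itself favored a rise for all of these. None of the 7 passed for induction. On day 5 the list had a median difference of -0.13, and its ends were St14, the gene of matriptase, a protease known to cut PDGF-C and PDGF-D, at 509 in the induced culture and 94.4 in the untreated culture, and Nrp1 at 1515 and 3701. Pdgfd, the remaining ligand gene of the family, was below background on all 6 arrays, and so was the protease gene Plau.

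Downstream of the receptors, the adaptors and kinases differed little between treatments. All 20 with a symbol of their own were tested, of 25 listed, and their median difference on day 5 was -0.06, with 12 lower, 8 higher and 0 past 2-fold. Day 5 counts, here and in the lists below, are to be read against the 46.7% of all genes lower and 53.2% higher. At 2-fold the shares were 1.52% lower and 1.97% higher. The largest were Shc1, an adaptor, at 0.57, and Plcg1, a phospholipase that binds the activated receptors, at -0.42. Over time 9 rose and 2 fell (median 0.25), among them Gab1, a docking protein, at -1.30 (SE 0.09, limma adjusted p = 0.0018), and Stat3 at 0.93 (SE 0.11, limma adjusted p = 0.0049). Negative regulators, with 13 tested of 15 listed, had a median day 5 difference of -0.01. In that list Dusp6, a phosphatase for ERK, read 2086 in the induced culture and 776 in the untreated culture on day 5, and Spry4, a feedback inhibitor of receptor kinases, read 149 and 70.8. On day 4 both went the other way, Dusp6 at 2449 in the induced culture and 3093 in the untreated culture, and Spry4 at 108 and 166. Over time 4 negative regulators rose and 0 fell, led by the ubiquitin ligase gene Cblb (0.95, SE 0.10, limma adjusted p = 0.0040).

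Immediate early genes, which growth factors including PDGF induce within minutes, had a median day 5 difference of -0.00253 over 10 tested of 12 listed, with 5 lower and 5 higher. Myc was the furthest apart, at 569 in the induced culture and 1099 in the untreated culture, and was lower on 3 of 3 days (-0.57 ± 0.29, SD, n = 3 days). Over time 4 rose and 1 fell, with Egr3 at 1.45 (SE 0.19, limma adjusted p = 0.0058) and Ier3 at -1.23 (SE 0.22, limma adjusted p = 0.0124). The related receptor and VEGF ligand genes had 7 tested of 12 symbols listed, where Figf and Vegfd name the same gene, and 5 of them rose and 0 fell by day 5. On day 5 their median difference was -0.16, with 4 lower and 3 higher. The receptor gene Kit read 397 in the induced culture and 208 in the untreated culture on day 5, and Flt1 read 749 and 436. On day 4 Flt1 went the other way, at 185 in the induced culture and 275 in the untreated culture. Vegfa read 292 in the induced culture and 557 in the untreated culture on day 5. Kdr, which encodes Flk1, differed by -2.25 on day 4 and -0.82 on day 5, with the larger gap on day 4 as for Pdgfra. Vegfc, a ligand gene, differed by -0.42 and -1.47, with the larger gap on day 5 as for Pdgfrb. None of the pathway genes above passed limma for induction or for treatment by day.

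Markers of the cell types in which the PDGF genes are known were set beside these values. Among paraxial mesoderm genes, 6 were tested of 12 listed, and their median difference was -0.52 on day 4 and 0.23 on day 5. The listed gene T (brachyury) matched no probe set under that symbol and enters none of these values. That does not show that the array lacks it. Mesp1, a regulator of nascent mesoderm, read 193 in the induced culture and 684 in the untreated culture on day 4, and 660 and 709 on day 5. The summed intensity of the 11 listed genes matched by symbol was 2507 in the induced culture and 4245 in the untreated culture on day 4, and 3491 and 2229 on day 5, while Foxc2, Meox1 and Msgn1 were below background throughout. Such a sum, here and in the lists below, weighs the brightest probe sets most and does not measure an amount of a cell type. Pcdh8 was its largest part on day 4, at 1443 in the induced culture and 2062 in the untreated culture. On day 4, 5 of the 6 were lower in the induced culture, where 45.9% of all genes were, the exception being Tcf15 at 0.05. On day 5, 5 of the 6 were higher, where 53.2% of all genes were, among them Pcdh8, a protocadherin gene, at 1484 in the induced culture and 553 in the untreated culture, and the Notch ligand gene Dll3 at 721 and 438. Their part in the Pdgfra difference was not tested. Over time 2 of the listed genes rose and 1 fell, namely Tcf15 (-3.27, SE 0.09, limma adjusted p = 0.00072). On day 3 Tcf15 already read 1173 in the induced culture and 1145 in the untreated culture, and Pcdh8 read 1157 and 1356. Mesp1 was near background on that day, at 32.7 and 38.1. Tcf15 and Pcdh8 were thus present before Mesp1 rose, and the list does not follow nascent mesoderm alone.

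Extraembryonic endoderm, the other known site of Pdgfra, had 12 genes tested of 15 symbols listed, where Lamb1 and Lamb1-1 name the same gene. Their median difference was 0.09 on day 4 and 0.03 on day 5, and 8 rose and 0 fell over time, where 20.6% and 19.2% of all genes did. Those that rose were Gata4, Gata6, Sox17, Pth1r, Lama1, Lamb1, Col4a1 and Col4a2. Sox7 (1.44), Dab2 (-0.10), Amn (-0.40) and Cubn (-0.44) did not pass over time. The paper names Sox17 as an epiblast marker. The transcription factors Gata6 and Sox17 were 2-fold lower in the induced culture on day 4 (-1.06 and -1.07), while on day 5 they stood at 0.12 and 0.41. Sox7 was 2-fold lower on day 5 (-1.90) and Gata4 stood at -0.62, but Cubn at 0.48. Summed over the 14 listed genes matched by symbol, intensity was 8477 in the induced culture and 9048 in the untreated culture on day 4, and 15264 and 14283 on day 5, with Afp below background on all arrays.

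Pericyte and smooth muscle genes, set beside Pdgfrb, had 5 tested of 10 listed, and a median day 5 difference of -0.11. Rgs5, a pericyte marker, followed the receptor, at 599 in the induced culture and 1924 in the untreated culture on day 5 (-1.61), and Acta2 differed by -0.90, but Tagln differed by 0.47. The summed intensity of the 10 genes was 5713 in the induced culture and 6779 in the untreated culture on day 5, with Abcc9 and Cspg4 below background on all arrays. Tagln was the largest part of it, at 3350 in the induced culture and 2397 in the untreated culture. By day 5, 3 rose and 1 fell over both cultures.

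Fibroblast markers, listed because the line is kept on feeder cells and because fibroblasts make PDGFRβ, had 3 tested of 7 listed. The paper states that the cells had 1 passage without feeders before differentiation. On day 3 Col1a1 read 5.78 in the induced culture and 2.22 in the untreated culture, and Postn 1.23 and 1.75, all below background. Col1a2 was above it on that day, at 58.1 and 88.2. Col1a1 read 89.7 in the induced culture and 577 in the untreated culture on day 5, and Col1a2 read 105 and 136. Postn reached the filter only on the untreated array of day 5, at 24.8 in the induced culture and 83.2 in the untreated culture, which fixed its direction. All 3 rose over time, Col1a1 and Postn having entered the test only through day 5. Their summed intensity over the 7 genes was 225 to 304 in induced cultures and 218 to 899 in untreated cultures, with the highest value on the untreated array of day 5, where Pdgfrb was also highest, and Lum was below background throughout. The part of such cells in the Pdgfrb difference was not tested.

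Endothelial genes, for which Pdgfb is a known product, had 5 tested of 10 listed. Of these, 4 (Cdh5, Esam, Fli1 and Tal1) reached the filter only on the untreated array of day 5, which fixed their direction on that day, and on day 4 Cdh5, Fli1 and Tal1 were below background in both cultures. Etv2, a regulator of blood and endothelial precursors, was above background on every array, at 123 in the induced culture and 374 in the untreated culture on day 4, and 152 and 398 on day 5. Their summed intensity over 10 genes was 396 in the induced culture and 1675 in the untreated culture on day 5, and Cldn5, Emcn, Pecam1 and Tie1 were below background on all arrays. Pdgfb did not differ in that direction on day 5, at 231 in the induced culture and 188 in the untreated culture. None of the 5 endothelial genes passed over time in either direction. Epiblast and pluripotency genes, where Pdgfa is known, were all higher in the induced culture on day 5, 8 of 8 with a median of 1.74, where 53.2% of all genes were higher. Their summed intensity was 21903 in the induced culture and 8081 in the untreated culture. From day 3 to day 5 they had a median change of -1.33, with 0 risen and 3 fallen, whereas Pdgfa rose. None of the genes in these marker lists passed limma for induction.

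**Figure D4:**
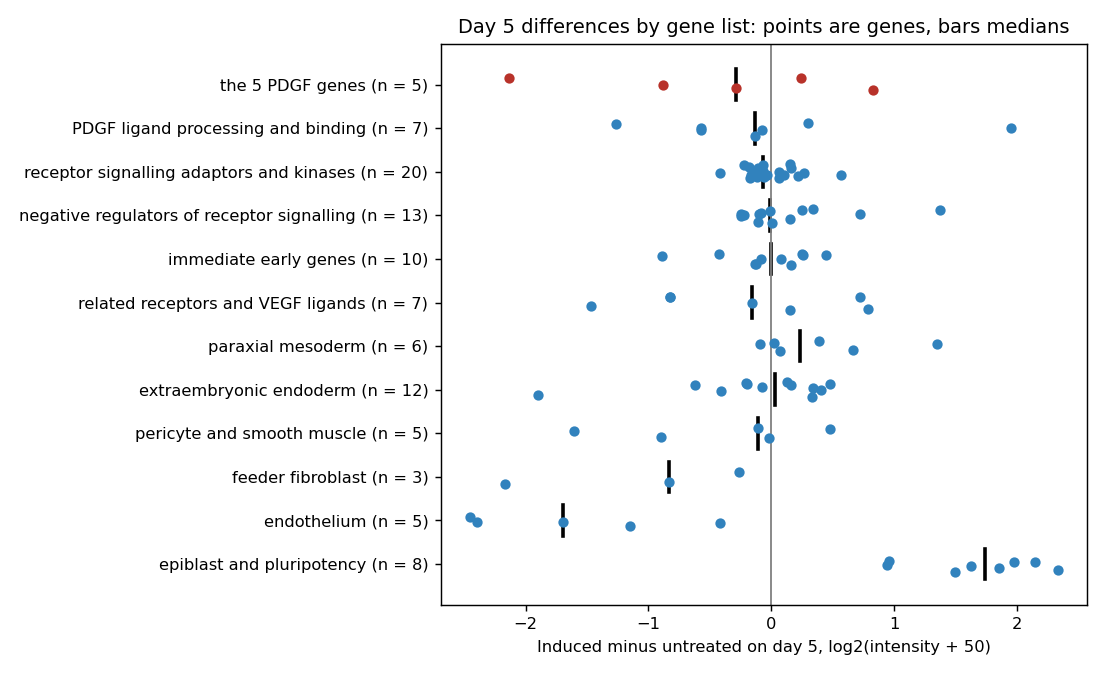
Induced minus untreated difference in log2(intensity + 50) on day 5 for the 5 PDGF genes (red) and the tested genes of 11 lists (blue), 1 point per gene, with the median of each list as a black bar; each point rests on 2 arrays and vertical scatter within a row is for display. The 5 PDGF genes run from -2.14 for Pdgfrb to 0.82 for Pdgfa, with a median of -0.29, and 4 of the 5 endothelial points and Postn of the fibroblast list belong to genes that reached the filter only on the untreated array of day 5.

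The sequence before the start site is given for Pdgfra and Pdgfa, a receptor gene and a ligand gene that differed in opposite directions on days 4 and 5. Pdgfrb also differed opposite to Pdgfa on those days, but no promoter was matched for it. Promoters were matched in the RefSeq table (GRCm38.p6) for 3 of the 5 genes, Pdgfra, Pdgfa and Pdgfc, and the 250 bases before the start were searched on both strands for CACCTG, the E-box bound by Zeb and Snail factors, GGGCGG, a GC box, and TATAAA. Matches are in capitals, and the second of 2 Pdgfa windows is shown.
Pdgfra, chr5:75152001-75152250, plus strand: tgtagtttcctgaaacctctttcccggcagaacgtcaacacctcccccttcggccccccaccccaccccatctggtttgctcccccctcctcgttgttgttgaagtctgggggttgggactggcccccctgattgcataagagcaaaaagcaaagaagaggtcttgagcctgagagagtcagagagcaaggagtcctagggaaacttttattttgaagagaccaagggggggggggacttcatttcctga
Pdgfa, chr5:138994945-138995194, minus strand: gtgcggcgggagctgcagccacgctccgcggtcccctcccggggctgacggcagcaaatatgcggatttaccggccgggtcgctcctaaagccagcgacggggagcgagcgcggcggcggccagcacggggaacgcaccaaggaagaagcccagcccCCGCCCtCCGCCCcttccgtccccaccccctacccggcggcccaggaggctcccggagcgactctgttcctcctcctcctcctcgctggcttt
The printed Pdgfa window held 2 GC boxes and was 72.4% G and C, higher than 93.6% of the windows in the table. The other Pdgfa window held 1 GC box and was 66.4% G and C, higher than 85.2% of the windows. The Pdgfra window held none of the 3 motifs and was 54.4% G and C, beside a median of 52.4%. The Pdgfc window, not printed, also held none and was 50.8% G and C. Of the 32851 windows, 17.2% held CACCTG, 32.7% GGGCGG and 12.4% TATAAA, and both printed windows lie within the RefSeq span of their gene.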

How the data were processed

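RNA from 6 cultures was hybridized to Affymetrix MOE430 2.0 arrays, and the authors normalized and modelled the scans in DNA-Chip Analyzer (dChip), version not given in the sources used here. The deposited values are linear intensities for 45037 probe sets. Of these, 34945 carried 1 gene symbol, 932 several and 9160 none in the platform annotation, and the last 2 kinds were left out. Each gene was taken from its probe set with the highest mean. Genes whose highest value reached 80.1, the median of all gene values, were tested on log2(intensity + 50), which left 9997. Tests used limma 3.58.1 in R 4.3.3 (lmFit, eBayes with trend, two-sided, Benjamini-Hochberg at 0.05), checked on simulated data. The fit with day as a factor leaves 2 residual degrees of freedom, and nothing beyond that measures variation between cultures of a day. Precision is limited by how few arrays there are. The 5 genes, the gene lists, tests and alternatives were chosen with earlier results of these data known. The background level is the 95th percentile of 78 chemosensory receptor genes (odorant, pheromone, taste and trace amine families). Named genes are the 5 members, the 3 closest in pattern to each, Zeb1 and Zeb2, and from each list up to 3 by day 5 difference above background and up to 2 by change over time past the threshold. Alternatives changed the pseudocount, normalization, probe set rule, filter, trend, days included and the treatment by day term. Named outside the rule were Pou5f1, Etv2, Esam, Kit, Plat, Fos, Pth1r, Lama1, Lamb1, Col4a1, Col4a2, Dab2, Amn and the genes given as below background, chosen after their values were seen. T, Figf and Lamb1-1 were named as listed symbols that matched no probe set.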

Additional observations from a re-analysis of the deposited data

Results flagged for a closer look

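For 3 of the 5 genes the induced minus untreated difference had opposite signs on different days, each day resting on 1 pair of arrays, and the difference between days was tested only as a linear change, which no gene passed. Pdgfrb differed by 0.31 on day 3, but by -0.75 on day 4 and -2.14 on day 5. Pdgfb differed by -0.20 on day 3 and -0.014 on day 4, but by 0.24 on day 5. Pdgfc differed by 0.067 on day 3 and 0.29 on day 4, but by -0.29 on day 5. Pdgfb also changed in opposite directions between days 3 and 5, by 0.28 in induced cultures and -0.17 in untreated cultures, which was not tested.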

How the results depend on the processing

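Among the comparisons of an overall count or a gene's tested value with its value under an alternative, 127 kept direction and side of the threshold or stayed within 1.5 times, while 4 counts moved, 4 signs turned, 2 values came to pass and 1 ceased to. For induction the count of genes stayed at 0 except without day 5, so that the range over left-out days was 0 to 2, and with treatment by day in the fit (145). In that last fit Pdgfrb passed with the same mean difference of -0.86. The signs of the near-zero induction values of Pdgfb and Pdgfc turned, for Pdgfb to -0.00765 under quantile normalization and to -0.11 without day 5, and for Pdgfc to -0.018 with the mean of all probe sets and to -0.11 without day 4; over left-out days Pdgfb ranged from -0.11 to 0.11 and Pdgfc from -0.11 to 0.18. For day 5 minus day 3, leaving out day 4 gave 2454 genes against 3984, and Pdgfa at 0.75 no longer passed. For treatment by day, a pseudocount of 100 gave 11 genes against 0, among them Pdgfrb at -1.08 (limma adjusted p = 0.0495), while its adjusted p ranged from 0.0495 to 0.370 over its 6 alternatives; the cause was not tested. With the mean of all probe sets Pdgfra differed by -0.56 on day 4 and -0.45 on day 5. A pseudocount of 0, added after the data were seen, gave Pdgfra 4.21 from day 3 to day 5 in induced and 5.04 in untreated cultures. Quantile normalization and the pseudocounts moved the median difference of all genes by less than 0.1 on each day. Cultures were paired by day in every fit, and the labels carry no replicate numbers for any other pairing. Day 3 values of both receptor genes lie near the background, which limits the size of any change from that day.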
